A study of Homo sapiens with 4 samples.

Results

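The MiT/TFE transcription factors and the folliculin-Rag genes that control them were followed in Caki-1 cells after knockdown of TFE3. The group holds 10 genes chosen by symbol, out of 61533 gene identifiers in the count table: the factors TFE3, TFEB, MITF and TFEC, the folliculin complex genes FLCN, FNIP1 and FNIP2, and the Rag GTPase genes RRAGA, RRAGC and RRAGD. All 10 were in the table, and 9 of them had enough counts to be tested, the exception being TFEC. Caki-1 is an established human renal cell carcinoma line, grown here in McCoy's 5A medium with serum. One arm, shControl, has the genotype label WT and received lentivirus with a control sequence. The other arm, shTFE3, has the label TFE3-KD and received lentivirus with hairpin RNA against TFE3. Each arm had 2 libraries of polyadenylated RNA, 4 in all. Both arms were replated 24 hours after infection, given puromycin at 1 µg/ml 12 hours later, and collected after 3 days of selection, so control cells carry a vector and the selection as well. How many hairpins were used is not stated, nor whether the 2 libraries of an arm were infected separately, and p-values therefore measure the spread between these libraries only.

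TFE3, TFEB, MITF and TFEC are basic helix-loop-helix leucine zipper factors that bind E-box sequences and switch on genes of lysosomes and autophagy. In fed cells, Rag GTPases on the lysosome, each a dimer of RagA or RagB with RagC or RagD, bring these factors to the kinase complex mTORC1, which phosphorylates them and so keeps them in the cytoplasm. FLCN, a tumour suppressor lost in an inherited form of kidney cancer, works with FNIP1 or FNIP2 as the GTPase activator of RagC and RagD in this step. Several genes of this control unit are known targets of the factors it restrains, which makes a feedback loop.

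One sequence that these factors are known to bind is CACGTG, a palindrome that reads the same on both strands. RefSeq promoter windows on GRCh38.p14, reaching from 250 bases before to 50 bases after a start site, matched 8 of the 10 genes in 14 windows, and RRAGA and RRAGD had no entry. A CACGTG was found in the windows of FNIP1 and RRAGC and in no window of the other 6 genes. For comparison, 7.26% of all 35116 windows hold it, as do windows of 8.77% of the 27305 genes with a window. The windows of FNIP1 (chr5:131796968-131797267, minus strand), RRAGC (chr1:38859723-38860022, minus strand) and FLCN (chr17:17237119-17237418, minus strand) are shown 5′ to 3′ along the gene with CACGTG in capitals, because the first 2 hold it and FLCN, with the lowest log2 fold change after TFE3, does not.

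FNIP1: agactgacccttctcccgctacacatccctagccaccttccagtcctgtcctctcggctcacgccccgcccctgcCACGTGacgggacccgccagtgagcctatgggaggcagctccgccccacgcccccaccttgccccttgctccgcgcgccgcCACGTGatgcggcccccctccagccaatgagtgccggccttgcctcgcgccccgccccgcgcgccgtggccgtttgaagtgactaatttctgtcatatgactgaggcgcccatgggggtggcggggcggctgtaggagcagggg
RRAGC: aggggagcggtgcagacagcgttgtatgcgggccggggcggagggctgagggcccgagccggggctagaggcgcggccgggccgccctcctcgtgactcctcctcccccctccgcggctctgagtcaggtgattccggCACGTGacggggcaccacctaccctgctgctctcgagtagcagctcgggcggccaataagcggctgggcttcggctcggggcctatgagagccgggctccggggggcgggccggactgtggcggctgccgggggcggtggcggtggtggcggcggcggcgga
FLCN: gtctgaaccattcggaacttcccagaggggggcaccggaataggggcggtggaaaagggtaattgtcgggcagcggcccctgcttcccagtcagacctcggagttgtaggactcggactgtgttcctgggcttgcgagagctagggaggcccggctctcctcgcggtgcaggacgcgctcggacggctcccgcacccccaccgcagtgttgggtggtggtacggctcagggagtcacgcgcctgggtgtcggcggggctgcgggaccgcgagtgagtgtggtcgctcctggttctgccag

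In FNIP1 the matches began 175 and 94 bases before the start site, and in RRAGC the match began 112 bases before it. Each of these 3 matches is followed by an A, which makes it the 7-base TCACGTG on the opposite strand, found in 3.71% of all windows; this motif overlaps CACGTG. The related CATGTG, searched on both strands, was found in the second FNIP2 window only, 142 bases before that start, and in 11.1% of all windows. Among tested genes with a window, CACGTG was present for 237 of 1562 genes that fell (15.2%), 125 of 1270 that rose (9.84%) and 1028 of 8434 that did neither (12.2%), shares given with no test. A match describes letters in the window, and binding was not measured in the data used here.

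The libraries held 17270180 to 17742519 counts. A count of 3, the limit that a count of 0 allows, was worth 0.167 to 0.176 CPM (the standard unit of counts relative to library size, scaled here with TMM factors, which correct for library composition), for counting error only. The replicate counts differed by more than sampling noise, with a chi-square over its degrees of freedom of 2.12 in shControl and 3.61 in shTFE3, so each library was kept as a replicate. Of 11 renal epithelial markers, 9 had counts, with a summed level of 1262 to 1295 CPM in every library and PAX8 at a mean of 439 (shControl) and 464 CPM (shTFE3), while CA9 and PAX2 were at 0. Within this list the sum hides opposite changes: LHX1 fell to 57.3% of control and KRT18 to 82.4%, and NNMT rose to 114% (edgeR adjusted p 9.25e-07, 0.00191 and 0.0146). Summed markers of leukocytes (1.41 to 2.11 CPM), endothelium (2.81 to 4.06 CPM), fibroblasts (19.1 to 19.9 CPM) and melanocytes (3.69 to 4.33 CPM) were low in both arms. In bulk RNA, fewer cells of a kind and less RNA per cell cannot be told apart.

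Of the 9 tested genes, 7 fell in shTFE3 and 0 rose, by edgeR's quasi-likelihood test at a Benjamini-Hochberg adjusted p of 0.05 over all genes. Among all 15950 tested genes 12.9% fell and 10.3% rose, for 23.3% called in all, and among the 10914 that averaged 100 counts or more 16.3% fell and 12.7% rose. Scaling by library totals gave 1680 falls and 2119 rises over all genes, in place of 2059 and 1650. By DESeq2 at an adjusted p under 0.05 the rises among the 9 were also 0, against 6.15% of the 13785 genes that it gave an adjusted p. The falls were those of TFE3, MITF, FLCN, FNIP1, FNIP2, RRAGC and RRAGD. A fall of TFE3, the target of the hairpin, was set by the design, and of the other 8 tested genes 6 fell. TFEB and RRAGA did not pass. The median log2 fold change of the 9 genes, TFE3 included, was -0.55, against 0.0015 over all tested genes. In CPM, both knockdown libraries lay below both control libraries for 8 of the 9 genes, TFE3 among them, and above for RRAGA. Of all tested genes, 30.5% lay below and 29.8% above in this way. Without shTFE3 replicate 2 the falls numbered 4, those of TFE3, FLCN, RRAGC and RRAGD, against a background of 4.08%, and with no filter on low counts they numbered 2, those of TFE3 and FLCN, against 0.876%.

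**Figure D1:**
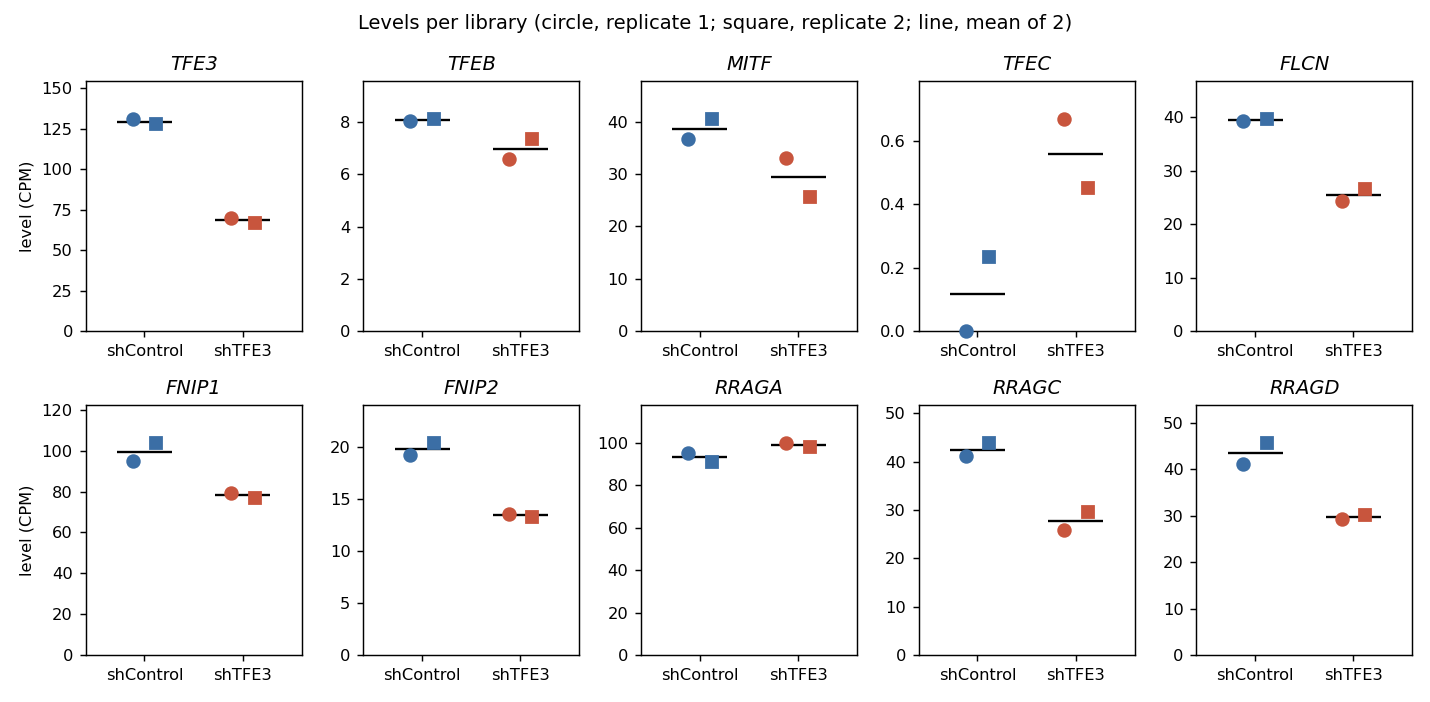
Level in CPM (vertical axes, from 0, a different scale for each gene) of the 10 genes in the 2 shControl and 2 shTFE3 libraries, each point a library and each line the mean of an arm. The knockdown points lie below the control points for every gene except RRAGA and the scarcely detected TFEC.

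TFE3, the targeted gene (ENSG00000068323, minus strand of chromosome X, 49028726 to 49043486 on GRCh38), had 2231 and 2179 counts in shControl, against 1259 and 1190 in shTFE3. Its transcript was thus still present in the knockdown arm, at 70.1 and 66.9 CPM against 131 and 128 CPM, and the libraries follow their labels. The 95% interval of its log2 fold change of -0.92 ran from -1.05 to -0.79 (edgeR adjusted p 5.6e-11), and 303 of 15950 tested genes (1.90%) had a value as low or lower.

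MITF, the family member known as the master regulator of melanocytes (ENSG00000187098, chromosome 3, 69739435 to 69968337, plus strand), had 624 and 689 counts in shControl, against 595 and 456 in shTFE3, or 36.6 and 40.5 CPM against 33.1 and 25.6 CPM. The knockdown libraries differ from each other by more than replicate 1 of the knockdown differs from replicate 1 of the control. The mean of MITF fell from 38.5 ± 2.73 to 29.4 ± 5.29 CPM (SD, n = 2). In edgeR the log2 fold change was -0.39 (SE 0.096, adjusted p 0.00389). Without shTFE3 replicate 2 the log2 fold change of MITF was -0.22 and its call ended, and without shTFE3 replicate 1 it was -0.59. The fit without shTFE3 replicate 2 also had 3.98 prior degrees of freedom, against 22.4 in the main fit. The part of this in the lost call was not tested.

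TFEB, the closest studied relative in lysosomal control (ENSG00000112561, chromosome 6, 41683978 to 41736259, minus strand), had 137 and 138 counts in shControl, against 118 and 131 in shTFE3, which is 8.03 and 8.10 CPM against 6.57 and 7.36 CPM. Its log2 fold change of -0.21 did not pass (edgeR adjusted p 0.3), and the 95% interval of -0.50 to 0.076 covers both no change and a fall as large as that of MITF. TFEC (ENSG00000105967, chromosome 7, 115935148 to 116159896, minus strand), a member known mainly from macrophages, had 0 and 4 counts in shControl, against 12 and 8 in shTFE3, at most 0.668 CPM. No fold change is given for it: it was below the filter of the test, and without shControl replicate 2, where the lone control count is 0, it passed (edgeR adjusted p 0.00712). It did not pass in the other 3 fits that tested it, those with no filter on low counts, without shControl replicate 1 and without shTFE3 replicate 2 (edgeR adjusted p 0.373, 0.366 and 0.201). The summed level of 4 markers of osteoclasts and macrophages was 13.7 and 16.0 CPM in shControl and 17.1 and 18.1 CPM in shTFE3, with DCSTAMP at 0 throughout. Most of that sum was CTSK, which had 161 and 213 counts in shControl, against 251 and 260 in shTFE3, and rose (edgeR adjusted p 0.0285), whereas ACP5 went from 8 and 10 counts to 0 in both knockdown libraries and OSCAR overlapped between the arms. Of the leukocyte markers, CD14, of monocytes and macrophages, had 2 counts in each control library and 10 and 11 in the knockdown libraries. Others did not follow it: CSF1R went from 5 and 6 counts in shControl to 2 and 4 in shTFE3. CD68 had 0 and 2 counts against 1 and 0, and ITGAM overlapped between the arms. The part of osteoclasts, monocytes or macrophages in the TFEC counts was not tested.

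The summed transcript level of the family was lower in the knockdown. Compared per exon length as FPKM (CPM per kilobase of the union of annotated exons), the 4 factors summed to 37.1 and 37.0 FPKM in shControl and 22.2 and 20.5 FPKM in shTFE3. TFE3 made up 82.4% and 80.8% of that sum in shControl and 73.7% and 76.0% in shTFE3, while TFEB, MITF and TFEC together went from 6.52 and 7.09 FPKM to 5.85 and 4.93 FPKM. TFE3 remained the most abundant of the 4 in each library. With the longest transcript as length, its share was 78.2% and 76.4% against 68.3% and 70.4%.

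FLCN (ENSG00000154803, chromosome 17, 17212212 to 17237188, minus strand) had the lowest log2 fold change after TFE3, close to that of RRAGC. It had 670 and 675 counts in shControl, against 438 and 474 in shTFE3, or 39.3 and 39.6 CPM against 24.4 and 26.6 CPM. The control libraries lie close together, and both knockdown libraries are well below them. FLCN fell to 64.7% of control, a log2 fold change of -0.63 (95% interval -0.80 to -0.46, edgeR adjusted p 2.62e-06), and 752 of the tested genes (4.72%) had a value as low or lower. The call held under every alternative run, from -0.56 without shTFE3 replicate 1 to -0.70 without shTFE3 replicate 2.

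FNIP2 (ENSG00000052795, chromosome 4, 158769138 to 158908049, plus strand), the scarcer binding partner of FLCN here, had 328 and 347 counts in shControl, against 244 and 235 in shTFE3, which is 19.2 and 20.4 CPM against 13.6 and 13.2 CPM. It fell to 67.7% of control (log2 fold change -0.56, SE 0.10, edgeR adjusted p 0.000181). FNIP1 (ENSG00000217128, chromosome 5, 131641714 to 131797063, minus strand), the other partner, had 1622 and 1769 counts in shControl, against 1427 and 1365 in shTFE3, or 95.1 and 104 CPM against 79.4 and 76.7 CPM. FNIP1 fell less, to 78.5% of control (log2 fold change -0.35, SE 0.065, edgeR adjusted p 0.000255). Its window holds CACGTG at 2 places, and a link between the motif and the size of a fall was not tested. The 95% intervals of the 2 genes, -0.77 to -0.35 and -0.48 to -0.22, overlap, and the difference between them was not tested. Both calls ended without shTFE3 replicate 2, at log2 fold changes of -0.55 for FNIP2 and -0.33 for FNIP1. That fit had 3.98 prior degrees of freedom, against 22.4 in the main fit, and the part of this in the lost calls was not tested.

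Per exon length, FNIP1 supplied most of the FNIP transcript, 87.1% and 87.5% of the 2 genes' summed FPKM in shControl and 88.9% and 88.8% in shTFE3. The ratio of FLCN to the FNIP sum was 0.292 and 0.271 in shControl against 0.221 and 0.250 in shTFE3. The ratio depends on the gene length used: with the longest transcript it was 0.627 and 0.582 against 0.478 and 0.540. With either length the arms did not overlap, and the knockdown had the lower values. An exact two-sided permutation test of 2 against 2 libraries can give no p below 1 in 3, and none was run on such ratios.

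RRAGC (ENSG00000116954, chromosome 1, 38838198 to 38859823, minus strand) encodes RagC, the nucleotide-binding partner on which the FLCN complex acts. It had 700 and 747 counts in shControl, against 463 and 527 in shTFE3, which is 41.0 and 43.9 CPM against 25.8 and 29.6 CPM. RRAGC fell to 65.2% of control (log2 fold change -0.62, SE 0.084, edgeR adjusted p 5.1e-06). RRAGD (ENSG00000025039, chromosome 6, 89364636 to 89412270, minus strand), its close copy, had 704 and 779 counts in shControl, against 525 and 537 in shTFE3, or 41.3 and 45.7 CPM against 29.2 and 30.2 CPM. RRAGD fell to 68.3% of control (log2 fold change -0.55, SE 0.081, edgeR adjusted p 1.31e-05). Both calls held with any 1 library left out but ended when every gene with a count was tested (edgeR adjusted p 0.0727 and 0.0641). The 2 copies kept their proportion: RRAGC was 49.4% and 48.5% of their summed FPKM in shControl and 46.4% and 49.1% in shTFE3, values that overlap. With the longest transcript as length the shares were 64.1% and 63.2% against 61.3% and 63.8%, which also overlap.

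RRAGA (ENSG00000155876, chromosome 9, 19049395 to 19050983, plus strand), a gene of 1 exon that encodes the main RagA-type partner, stood apart from the rest. It had 1625 and 1551 counts in shControl, against 1797 and 1749 in shTFE3, or 95.3 and 91.0 CPM against 100 and 98.3 CPM. Its knockdown libraries were the higher ones, but the log2 fold change of 0.090 did not pass (SE 0.062, edgeR adjusted p 0.323), with a 95% interval of -0.037 to 0.22. That interval does not reach the values of RRAGC or RRAGD. RRAGB, the copy of RRAGA and not one of the 10, had 292 and 287 counts in shControl, against 244 and 234 in shTFE3. It fell by 0.35 on the log2 scale (edgeR adjusted p 0.0171), a call that ended with any 1 of the 4 libraries left out (edgeR adjusted p 0.0648 to 0.126) and by DESeq2 (adjusted p 0.148).

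Put together by the sides of the Rag dimer, RRAGC plus RRAGD came to 0.243 and 0.276 of RRAGA plus RRAGB in shControl and 0.158 and 0.175 in shTFE3, as ratios of FPKM. The knockdown libraries lay below the control libraries, also with the longest transcript as length (0.344 and 0.388 against 0.221 and 0.249). RRAGA made up 90.5% and 90.3% of the RagA-type transcripts in shControl and 92.7% and 92.8% in shTFE3. How the authors treated reads that match more than 1 gene is not given in the sources used here, so the split between such copies is uncertain.

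**Figure D2:**
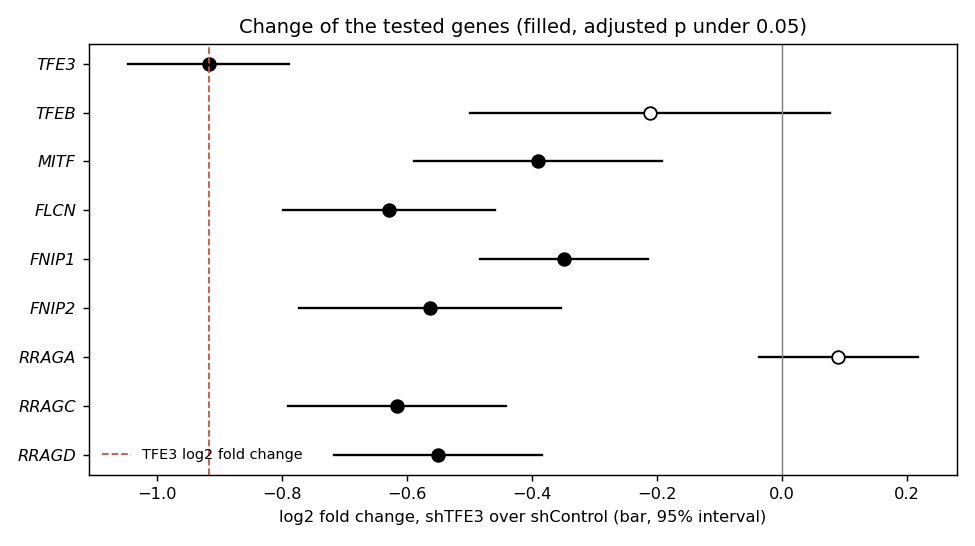
Log2 fold change of shTFE3 over shControl (horizontal axis) for the 9 tested genes, with 95% intervals as bars, filled points for an edgeR adjusted p under 0.05 and the TFE3 value as a dashed line. FLCN, FNIP2, RRAGC and RRAGD group between -0.63 and -0.55, MITF and FNIP1 are nearer to 0, and the intervals of TFEB and RRAGA include 0.

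Set against the loss of TFE3 on the log2 scale, the estimates of the other 8 tested genes were all nearer to 0. The log2 fold change of FLCN was 68.6% of that of TFE3, that of RRAGC 67.2%, that of FNIP2 61.4% and that of RRAGD 60.0%, compared with 38.1% for FNIP1 and 42.6% for MITF. For the genes that did not pass, it was 23.1% for TFEB and -9.81% for RRAGA, which was higher in the knockdown. Within each library the log2 ratio of FLCN to TFE3, from CPM, was -1.74 and -1.69 in shControl against -1.52 and -1.33 in shTFE3. The ratio was thus higher in both knockdown libraries, which is another way of saying that FLCN fell less than TFE3. For RRAGC the ratio went from -1.67 and -1.54 to -1.44 and -1.18, and for RRAGD from -1.66 and -1.48 to -1.26 and -1.15. For FNIP1 it went from -0.46 and -0.30 in shControl to 0.18 and 0.20 in shTFE3. CPM does not allow for gene length, so this change of sign is not a crossing of levels. Per exon length FNIP1 stayed below TFE3 in shTFE3, at 10.0 and 9.66 against 16.4 and 15.6 FPKM. Between the 2 knockdown libraries, the one with less TFE3, replicate 2, had more FLCN, RRAGC and RRAGD and less MITF, FNIP1 and FNIP2 in CPM, and 2 libraries cannot show an order.

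By level per exon length in shControl, RRAGA came first at 58.6 ± 1.88 FPKM, followed by TFE3 at 30.2 ± 0.48 and FNIP1 at 12.5 ± 0.78 (SD, n = 2). RRAGD at 8.58 ± 0.62 and RRAGC at 8.21 ± 0.38 did not differ beyond their spread. MITF at 5.36 ± 0.38 and FLCN at 4.03 ± 0.025 came next, then FNIP2 at 1.82 ± 0.074, TFEB at 1.43 ± 0.0086 and TFEC at the limit of detection. In shTFE3 the order was the same down to FLCN (2.61 ± 0.16), while FNIP2 at 1.23 ± 0.024 and TFEB at 1.23 ± 0.10 could not be ranked. The middle of the order depends on the gene length used: with the longest transcript, RRAGC (15.5 FPKM) and FLCN (10.8 FPKM) in shControl were above RRAGD (8.88 FPKM).

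**Figure D3:**
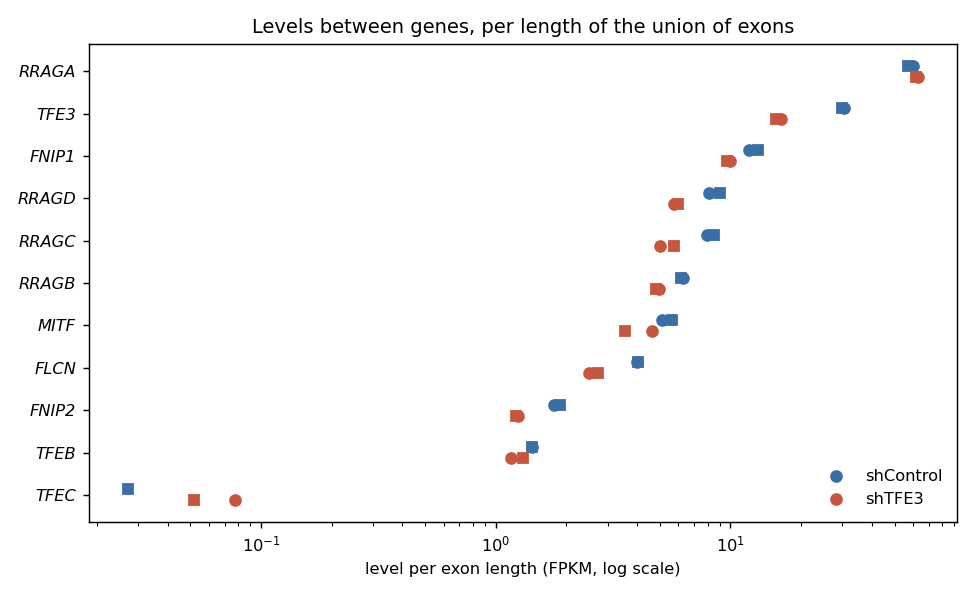
Level per length of the union of exons (FPKM, log scale) for the 10 genes and RRAGB, each point a library. The TFEC value of 0 in shControl replicate 1 cannot be drawn on a log axis; RRAGA and TFE3 are the highest, and TFEC is far below the others.

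The annotation puts other genes on some of these exons, and the strand setting of the counting is not given in the sources used here. AC055811.2 shares 11.9% of the exon bases of FLCN and had 3, 3, 1 and 0 counts in shControl replicates 1 and 2 and shTFE3 replicates 1 and 2. AL139260.2 shares 22.9% of those of RRAGC and AC008695.1 3.54% of those of FNIP1, and both had 0 counts in the 4 libraries. These low counts do not show how reads on the shared bases were assigned, or whether any were left uncounted. No other gene of GENCODE release 29 shares exon bases with the 10.

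The authors' deposited table of changed genes lists 546 genes and 3 of these 10. In the authors' deposited table the log2 fold changes are -0.92 for TFE3, -0.63 for FLCN and -0.62 for RRAGC. The smallest absolute log2 fold change in the authors' deposited table is 0.59, larger than the values found here for FNIP2, RRAGD, MITF and FNIP1, which passed the test but are not in it.

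The other genes of lysosomal amino acid sensing, a list of 35 without the 10, changed in both directions: 7 fell, 8 rose and 20 did not pass, where 12.9% of all tested genes fell and 10.3% rose. The median log2 fold change was 0.011, close to the 0.0015 of all tested genes. Ragulator, the anchor that holds the Rag GTPases on the lysosome, accounted for 3 of the falls among its 5 genes. LAMTOR1, its membrane-bound subunit, had 1871 and 1702 counts in shControl, against 1388 and 1503 in shTFE3 (log2 fold change -0.37), LAMTOR3 849 and 869 against 682 and 687 (-0.40), and LAMTOR5 1900 and 1776 against 1536 and 1541 (-0.33). Their edgeR adjusted p were 0.000166, 0.000246 and 0.00036. The other Ragulator genes, LAMTOR2 and LAMTOR4, did not pass, at 100.8% and 94.4% of control (edgeR adjusted p 0.942 and 0.48). The LAMTOR1 call ended without shTFE3 replicate 1 (edgeR adjusted p 0.074), and that of LAMTOR5 without either knockdown library (0.0543 without replicate 1 and 0.0585 without replicate 2).

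In the TSC branch, which turns off the mTORC1 activator RHEB, TBC1D7 had 462 and 476 counts in shControl, against 320 and 316 in shTFE3 (log2 fold change -0.63, edgeR adjusted p 1.08e-05), close in size to FLCN. TSC1, the subunit that TBC1D7 binds, fell by 0.24 on the log2 scale (edgeR adjusted p 0.00637), a call that ended without shControl replicate 1 and without either knockdown library (edgeR adjusted p 0.0558, 0.088 and 0.0734). The mTORC1 kinase gene MTOR rose from 2314 and 2199 to 3107 and 2915 counts (log2 fold change 0.35, edgeR adjusted p 8.77e-05). AKT1S1, the mTORC1 inhibitor PRAS40, rose from 1516 and 1466 to 1914 and 2005 counts (0.33, edgeR adjusted p 0.000344). AKT1S1 did not pass without shTFE3 replicate 2 (edgeR adjusted p 0.0607). Further called genes, named after their values were seen, were RRAGB and MLST8 among the falls and SESN2, WDR24, LARS1, WDR59 and TSC2 among the rises. The list had 4 falls without shControl replicate 1 (9.08% of all genes fell) and 3 rises without shControl replicate 2 (6.06% rose). It had 2 falls and 2 rises without shTFE3 replicate 1 (5.62% and 3.6% of all genes), and 3 falls and 2 rises without shTFE3 replicate 2 (4.08% and 2.22%).

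**Figure D4:**
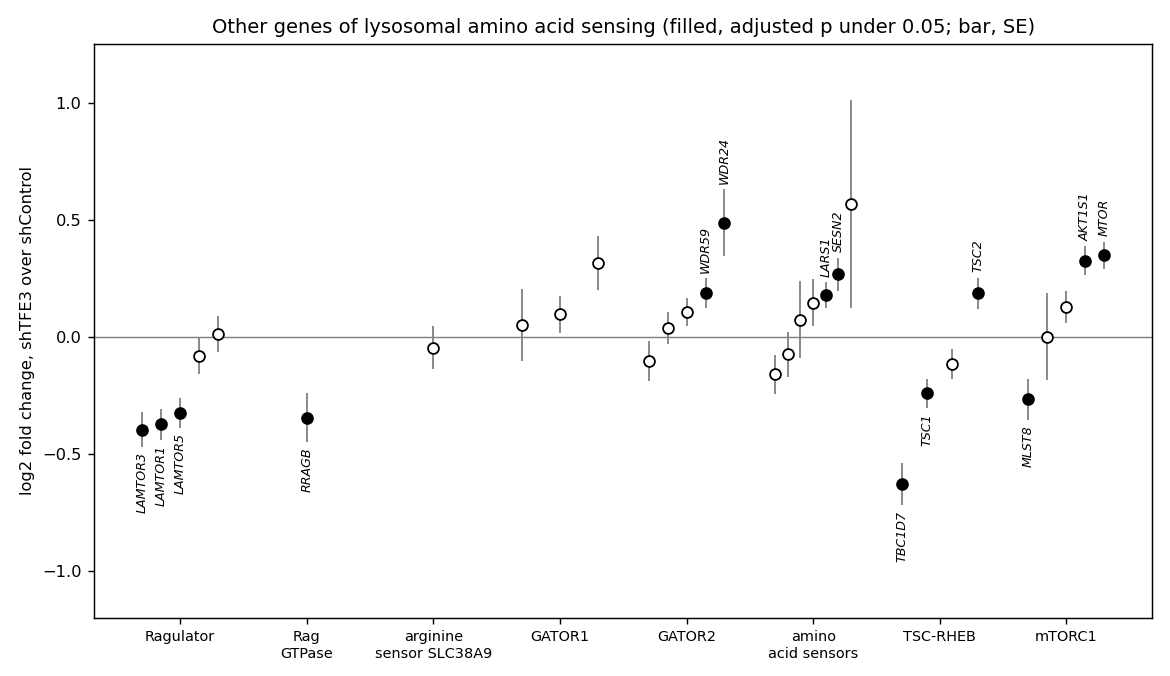
Log2 fold change of shTFE3 over shControl (vertical axis) for other sensing genes of the complexes on the horizontal axis, with SE bars, filled points and names for an edgeR adjusted p under 0.05. Ragulator holds 3 falls among its 5 genes, and the lowest value is that of TBC1D7 at -0.63.

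A list of 25 kinases, phosphatases, binding proteins and channels that act on MiT/TFE proteins had 3 falls, 2 rises and 20 genes that did not pass, with a median log2 fold change of 0.0014. These counts are near the background of 12.9% falls and 10.3% rises, so the calls are values of single genes and not a result about the list. RCAN1, an inhibitor of calcineurin, the phosphatase that activates TFEB, rose from 433 and 401 to 725 and 689 counts (log2 fold change 0.69, edgeR adjusted p 7.08e-07). MCOLN1, the lysosomal calcium channel upstream of calcineurin, had 400 and 419 counts in shControl, against 318 and 330 in shTFE3 (-0.41, edgeR adjusted p 0.00204). PRKAA2, a catalytic subunit of the energy sensor AMPK, had 468 and 487 against 342 and 283 (-0.68, edgeR adjusted p 9.65e-06). SFN, a 14-3-3 protein, of the family that holds phosphorylated MiT/TFE factors in the cytoplasm, had 434 and 446 against 317 and 338 (-0.49, edgeR adjusted p 0.000264). The other 14-3-3 genes of the list, YWHAB, YWHAE, YWHAG, YWHAH, YWHAQ and YWHAZ, did not pass (edgeR adjusted p 0.0602 to 0.907). PRKAA1, the other catalytic subunit gene of AMPK, did not pass either, at 99.8% of control (edgeR adjusted p 0.988). The kinase gene MAPK3 rose by 0.29 (edgeR adjusted p 0.00389). The MCOLN1 call ended without either knockdown library (edgeR adjusted p 0.0754 without replicate 1 and 0.0629 without replicate 2), and MAPK3 did not pass without shControl replicate 2 (0.102), shTFE3 replicate 1 (0.102) or shTFE3 replicate 2 (0.0878), which left 1 rise in the list in each case.

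Genes whose pattern over the 4 libraries was most like that of TFE3 or FLCN were sought among 6598 protein-coding genes that averaged 500 counts or more, by Euclidean distance of log2 CPM centred on the control mean. Nearest to TFE3 were STX3, a syntaxin of membrane fusion, at a distance of 0.037, TPP1, a lysosomal peptidase, at 0.043 and SH3TC2 at 0.067. TPP1, for example, had 127 and 126 CPM in shControl and 66.7 and 66.2 CPM in shTFE3. Nearest to FLCN were the receptor tyrosine kinase AXL (0.048), the secreted protein GAS6 (0.048) and PLAC8 (0.055). AXL had 463 and 451 CPM in shControl and 278 and 313 CPM in shTFE3. RRAGC lay at 0.080 from FLCN with 11 of the 6598 genes nearer, and RRAGD at 0.16 with 70 nearer. FLCN lay at 0.43 from TFE3 with 96 genes nearer. With 4 libraries in 2 arms, these distances mostly compare the size of the fall.

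**Figure D5:**
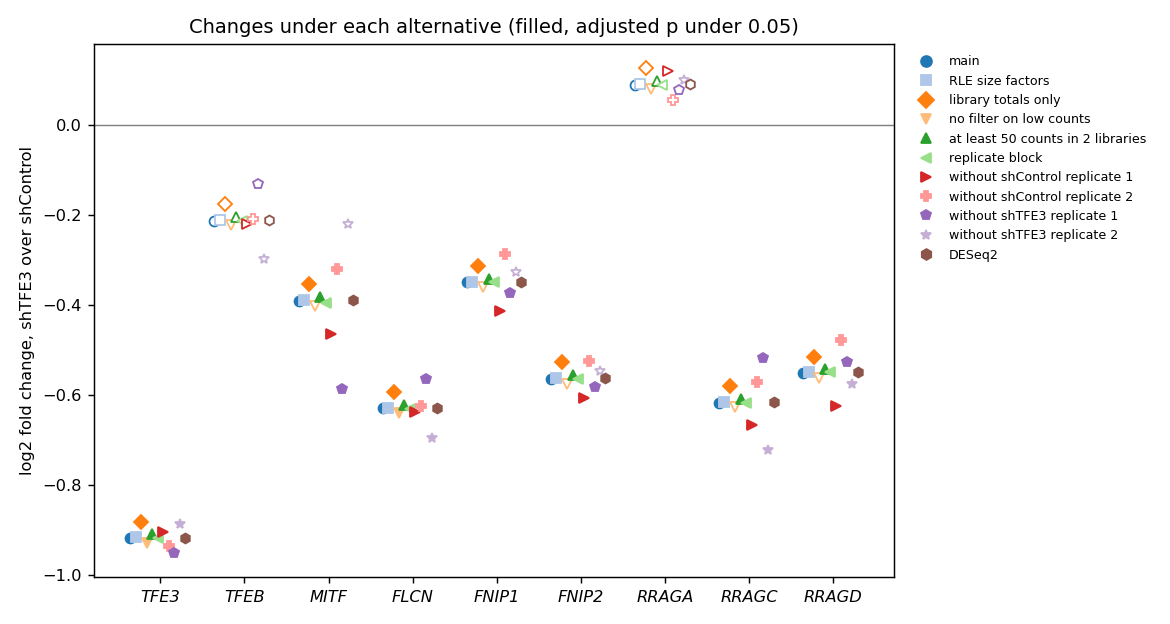
Log2 fold change of the 9 tested genes (vertical axis) under the main test and each alternative, with filled marks for an adjusted p under 0.05. TFE3 and FLCN are filled throughout, RRAGA stays above 0 and unfilled, and MITF, FNIP1 and FNIP2 lose their call without shTFE3 replicate 2.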

How the data were processed

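RNA-seq counts of 2 shControl and 2 shTFE3 Caki-1 libraries, sequenced as paired 150-base reads, were used. The authors deposited raw counts for Ensembl genes. The submitters' processing notes name hg38 as the build, STAR and featureCounts, Trim Galore, and DESeq2. Versions, annotation, strand setting and multi-mapping rule: not given in the sources used here. Per the file headers, the authors' deposited table of changed genes holds a mean normalized signal, log2 fold changes with standard errors, a test score, p-values and gene lengths.

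Symbols came from a gene name table (61415 identifiers) and GENCODE release 29 (105 more), and 13 had none. edgeR 4.0.16 in R 4.3.3 was run on the counts with TMM, filterByExpr (15950 genes, 99.8% of counts), the arm as the only term, the quasi-likelihood test and Benjamini-Hochberg adjustment over all tested genes. There were 2 residual and 22.4 prior degrees of freedom. The SE is the absolute log2 fold change over the square root of F, and intervals use 24.4 degrees of freedom. The procedure was also run on simulated counts, and no result given here rests on that run. Figures, ratios and motif counts used Python 3.11.15 and pandas 2.3.3.

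The genes, lists and tests were chosen with earlier results of these data known. Named were all 10 genes, up to 8 called genes of each list by smallest p, RRAGB, MCOLN1, LAMTOR1, and the 3 genes nearest to TFE3 and to FLCN. The background at a mean of 100 counts was added after the values were seen. Alternatives were size factors of DESeq2's kind, library totals, other count filters, DESeq2 1.42.0, a replicate term and each library left out. The chromatin immunoprecipitation was not analysed here, and 1 gene counted in the sensing list is not reported here.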

Additional observations from a re-analysis of the deposited data

How the results depend on the processing

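Directions of all 29 tested named genes were kept under every alternative run. Of the 27 that passed, 18 lost their call with no filter on low counts, where the prior degrees of freedom were 2.09 in place of 22.4, 9 without shTFE3 replicate 2, 7 without shTFE3 replicate 1, 2 without each of the control libraries in turn and 1 by DESeq2. The cause was not tested. With no filter, 280 genes fell and 104 rose in all, with 2 falls among the 10 genes, 1 fall and 0 rises in the sensing list, and 0 falls and 1 rise in the list of MiT/TFE regulators. By DESeq2, 1309 fell and 848 rose in all, and 5 sensing genes rose. With 1 library left out, falls ranged from 676 to 1507 and rises from 367 to 1008 over all genes, falls from 4 to 7 and rises from 0 to 1 (TFEC) among the 10, falls from 2 to 6 and rises from 2 to 6 in the sensing list, and falls from 2 to 3 and rises from 1 to 2 in the regulator list. Such fits have 1 residual degree of freedom, and the lone library of an arm is assumed to vary like the other arm. Their prior degrees of freedom were 4.25 without shTFE3 replicate 1 and 3.98 without shTFE3 replicate 2. Without shControl replicate 2 they were 452, and without shControl replicate 1 infinite. The numbers of lost calls therefore do not compare the libraries alone.

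Replicate numbers are shared by the arms but no source says that they pair the libraries, and deviations of same-numbered libraries had a correlation of -0.029 over genes. With a replicate block, 1990 genes fell and 1568 rose, with 7 falls among the 10 genes. This block changed no call of a named gene, in a fit whose prior degrees of freedom were infinite. With the longest transcript as length, levels in shControl were 37.9 FPKM for TFE3, 3.11 for TFEB, 8.0 for MITF, 10.8 for FLCN, 15.1 for FNIP1, 2.86 for FNIP2 and 15.5 for RRAGC. At this depth TFEC was below the filter of the main test. Of the 4 alternatives that tested it, 1 called it.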
